A study of Mus musculus with 4 samples.

Results

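The genes described here are 33 genes of the unfolded protein response and of its ATF4 arm, read from RNA sequencing counts of C22, a mouse Club cell line that was immortalized (Club cells are secretory cells of the airway epithelium). They were taken from the deposited count table by gene symbol, whatever their values. The 33 symbols stood beside 34 of the table's 22063 gene identifiers, since Ddit3 has 2 identifiers, and 32 of the 34 had enough counts to be tested. The NE libraries (n = 2) came from wild-type C22 cells given 10 µM norepinephrine (NE), the transmitter of sympathetic nerves, for 3 h. The vehicle libraries (n = 2) came from wild-type C22 cells given vehicle for 3 h, and both groups were grown in the same supplemented medium with fetal bovine serum. All 4 libraries thus come from 1 immortalized line, and the labels do not say whether replicates were separate cultures, so p-values measure only the spread between these libraries, which may be technical.

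The unfolded protein response adjusts the folding capacity of the endoplasmic reticulum (ER) to its load of secretory proteins, and Club cells are known as secretory cells. Its sensor IRE1 (gene Ern1) splices the Xbp1 message, its sensor ATF6 is cut to free a transcription factor, and its sensor PERK phosphorylates the initiation factor eIF2alpha, which favours translation of ATF4. XBP1 and ATF6 are known to induce chaperones and ER-associated degradation (ERAD), whereas ATF4 and its target CHOP (gene Ddit3) induce amino acid synthesis, stress and feedback genes. Counts per gene hold the amount of message only. They hold neither the spliced share of Xbp1 nor the translation of Atf4.

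The promoters of the members were read for the DNA elements through which these arms are known to act. Promoters of 28 of the 33 symbols were found in the RefSeq table (build GRCm38.p6), each with 250 bases before and 50 bases after the annotated start, and none was found for Atf6, Manf, Hyou1, Ppp1r15b or Derl1. The ER stress response element, searched as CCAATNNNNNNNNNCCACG on both strands, stood in the promoters of 6 members and in 39 of all 32851 promoters of the same length (0.119%). The 6 promoters are shown because they belong to chaperone, isomerase and ERAD genes whose values follow in the text. Each reads 5′ to 3′ on the strand of its gene, and the capitals mark the element, which runs in reverse complement in Creld2, Calr and Derl3.
Creld2, chr15:88819396-88819695, plus strand: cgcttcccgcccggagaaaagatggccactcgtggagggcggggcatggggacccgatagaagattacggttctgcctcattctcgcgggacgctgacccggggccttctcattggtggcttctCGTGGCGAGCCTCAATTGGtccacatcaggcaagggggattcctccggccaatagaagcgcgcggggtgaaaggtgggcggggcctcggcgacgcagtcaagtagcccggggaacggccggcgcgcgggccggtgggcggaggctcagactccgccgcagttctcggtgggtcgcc
Pdia6, chr12:17266339-17266638, plus strand: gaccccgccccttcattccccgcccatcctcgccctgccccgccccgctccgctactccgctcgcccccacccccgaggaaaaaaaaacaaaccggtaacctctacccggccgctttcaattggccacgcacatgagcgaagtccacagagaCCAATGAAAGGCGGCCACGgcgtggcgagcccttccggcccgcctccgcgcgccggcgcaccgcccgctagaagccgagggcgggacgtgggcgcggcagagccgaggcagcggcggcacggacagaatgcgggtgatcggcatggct
Calr, chr8:84846882-84847181, minus strand: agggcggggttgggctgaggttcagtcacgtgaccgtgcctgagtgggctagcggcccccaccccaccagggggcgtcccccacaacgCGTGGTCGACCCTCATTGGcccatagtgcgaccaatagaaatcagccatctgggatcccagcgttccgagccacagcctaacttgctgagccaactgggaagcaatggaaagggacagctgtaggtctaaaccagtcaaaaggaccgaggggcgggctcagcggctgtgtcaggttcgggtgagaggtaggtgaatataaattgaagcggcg
Canx, chr11:50325624-50325923, minus strand: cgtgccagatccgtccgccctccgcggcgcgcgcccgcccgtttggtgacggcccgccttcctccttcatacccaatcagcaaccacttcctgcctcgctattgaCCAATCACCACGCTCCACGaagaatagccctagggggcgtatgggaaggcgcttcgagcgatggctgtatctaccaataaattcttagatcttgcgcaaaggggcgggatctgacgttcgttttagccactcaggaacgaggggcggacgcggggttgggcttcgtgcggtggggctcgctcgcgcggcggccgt
Syvn1, chr19:6046326-6046625, plus strand: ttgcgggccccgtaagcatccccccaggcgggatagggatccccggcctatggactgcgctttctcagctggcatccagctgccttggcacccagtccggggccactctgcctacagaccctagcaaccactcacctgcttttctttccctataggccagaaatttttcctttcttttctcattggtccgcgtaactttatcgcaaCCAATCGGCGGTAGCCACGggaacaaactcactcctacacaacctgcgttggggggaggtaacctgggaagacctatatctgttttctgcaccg
Derl3, chr10:75893148-75893447, plus strand: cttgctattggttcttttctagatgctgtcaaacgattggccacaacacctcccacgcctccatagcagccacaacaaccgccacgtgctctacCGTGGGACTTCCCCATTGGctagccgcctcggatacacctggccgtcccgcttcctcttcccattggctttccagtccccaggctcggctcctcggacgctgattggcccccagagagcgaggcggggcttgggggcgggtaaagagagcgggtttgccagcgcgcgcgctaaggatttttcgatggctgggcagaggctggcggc

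The CCAAT-enhancer-binding protein and ATF response element, bound by ATF4 dimers, was searched as TGATGNAA on both strands. It stood in the promoters of 5 members, which were Trib3, Chac1, Asns, Herpud1 and Nupr1, and in 1304 of all 32851 promoters (3.97%). The promoters of Trib3 and Chac1 are shown, as the first of these 5 in the order of the member list. Their capitals mark the element, in reverse complement in both. A match describes the letters of the promoter and is not a shown binding site.
Trib3, chr2:152344011-152344310, minus strand: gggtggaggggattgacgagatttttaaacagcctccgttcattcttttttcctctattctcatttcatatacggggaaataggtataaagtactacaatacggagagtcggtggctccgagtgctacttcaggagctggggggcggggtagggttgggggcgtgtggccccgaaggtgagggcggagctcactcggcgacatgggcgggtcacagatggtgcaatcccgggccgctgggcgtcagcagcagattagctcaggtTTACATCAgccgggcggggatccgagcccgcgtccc
Chac1, chr2:119350992-119351291, plus strand: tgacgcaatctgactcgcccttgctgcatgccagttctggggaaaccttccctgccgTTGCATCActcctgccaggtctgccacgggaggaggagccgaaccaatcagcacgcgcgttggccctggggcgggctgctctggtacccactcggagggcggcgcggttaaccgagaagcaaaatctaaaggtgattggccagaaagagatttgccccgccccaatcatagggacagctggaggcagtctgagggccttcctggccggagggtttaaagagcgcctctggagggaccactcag

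Total counts were 15657173 and 18491334 in the NE libraries and 14820258 and 14783176 in the vehicle libraries, and no pair of libraries agreed within sampling noise. Of 11419 genes tested with edgeR's quasi-likelihood test, 39 were called higher and 140 lower in NE at an adjusted p under 0.05. The line was checked against its labelled cell type. Of 6 Club cell markers, Scgb3a2, Cyp2f2 and Scgb3a1 were at 0 in every library, Scgb1a1 had 2 counts over all 4 libraries, and Aldh1a1 and Ephx1 were present. Of 4 epithelial markers, Epcam was at 0 and Cdh1 had between 0 and 13 counts per library, while Krt8 and Krt18 were present. All 6 mesenchymal markers were detected. In bulk RNA, fewer cells of a kind and less RNA per cell cannot be told apart.

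No member was called between NE and vehicle. Of the 32 members tested, 0 had an adjusted p under 0.05 in edgeR's quasi-likelihood test, against 1.57% of all genes tested, and the smallest adjusted p was 0.0787 (Syvn1). The DESeq2 Wald test called 0 members, with no adjusted p for Ddit3. It called 0.657% of all genes, or 0.98% when the 3764 genes without an adjusted p are left out. Limma voom called 0 members and 1.88% of all genes. At an unadjusted p under 0.05 there were 7 members (21.9%), namely Manf, Asns, Creld2, Derl1 and Sdf2l1 with higher values in NE and Syvn1 and Ddit3 with lower values, against 17.3% of all genes. The share of members near the threshold was thus close to that of all genes.

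The log2 fold changes of the members, NE over vehicle, ran from -0.36 (Ddit3) to 0.34 (Manf). Their median was 0.06, against 0 over all genes, and 20 members (62.5%) had a fold change above 0, against 50% of all genes. The 95% intervals of 28 members lay within 0.5 log2 units of no change, and those of all 32 lay within 1 log2 unit, with the outermost ends at -0.64 and 0.60. The NE and vehicle libraries did not overlap for 9 members (28.1%), against 49.2% of all genes.

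**Figure D1:**
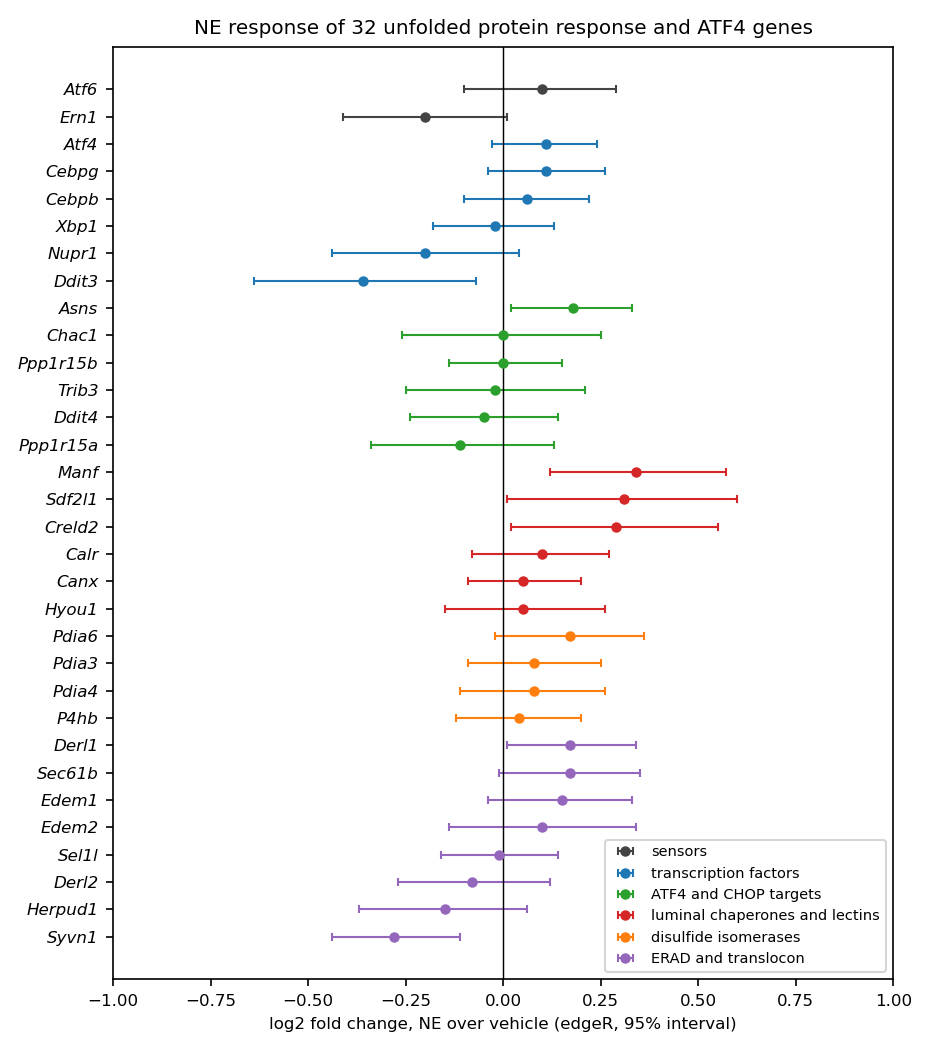
Log2 fold change (NE over vehicle) of the 32 members tested, by role; points are estimates of edgeR's fit over all genes and bars are 95% intervals (n = 2 libraries per group). The estimates run from -0.36 to 0.34, and none has an adjusted p under 0.05.

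Among the transcription factors, the genes at the head of the ATF4 arm had fold changes of opposite sign, and neither was called. Atf4, the regulator translated when eIF2alpha is phosphorylated, had 501.0 and 498.1 CPM (reads counted per gene, relative to the TMM-scaled size of the library) in the NE libraries and 467.9 and 459.2 CPM in the vehicle libraries. Both NE libraries were above both vehicle libraries, with a log2 fold change of 0.11 ± 0.06 (SE), which had an adjusted p of 0.412 in edgeR's test. Ddit3, which encodes the pro-apoptotic factor CHOP, had 12.9 and 15.1 CPM in NE and 17.2 and 18.8 CPM in vehicle. Both NE libraries were the lower ones, and the difference of -0.36 ± 0.14 had an adjusted p of 0.189. Of the 1713 exon bases of Ddit3, 81 overlap genes on the other strand. Its second identifier, which lies within the first, had 0 counts in all libraries, so its level is uncertain.

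Xbp1, the substrate of IRE1 and the factor of its arm, had 100.7 and 97.8 CPM in NE against 96.9 and 105.0 CPM in vehicle, with both NE values between the vehicle values. Cebpb, a partner of ATF4, had 118.5 and 115.1 CPM in NE and 105.7 and 118.1 CPM in vehicle. About 20.7% of its exon bases overlap Tmem189 on the other strand, so its level is uncertain. Cebpg, another dimer partner of ATF4, had 133.7 and 140.2 CPM in NE and 122.5 and 131.7 CPM in vehicle, a difference of 0.11 ± 0.07 without overlap. Nupr1, a small stress-induced chromatin factor, had 26.0 and 21.9 CPM in NE and 26.8 and 27.9 CPM in vehicle, with both NE libraries lower and an adjusted p of 0.391.

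Of the sensors, Ern1 had 80.5 and 70.6 CPM in NE and 76.8 and 96.5 CPM in vehicle. Its vehicle libraries lay farther apart than its NE libraries, and the groups overlapped. Without vehicle replicate 1 the difference was -0.35, and without vehicle replicate 2 it was -0.02. Without NE replicate 1 it was -0.29, and without NE replicate 2 it was -0.11. Over all libraries it was -0.20 ± 0.10 (adjusted p = 0.307 by edgeR). Atf6 had 99.6 and 102.7 CPM in NE and 83.8 and 105.6 CPM in vehicle, where vehicle replicate 1 alone was low.

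The targets and feedback genes of ATF4 and CHOP gave no common direction, with 2 fold changes above 0 and 4 below. Those of Ppp1r15b (counted above) and Chac1 (counted below) round to 0, and that of Trib3 was -0.02. Asns, asparagine synthetase, had 265.9 and 299.9 CPM in NE and 248.2 and 252.4 CPM in vehicle. Both NE libraries were the higher ones, and the difference of 0.18 ± 0.07 had an unadjusted p of 0.0255 and an adjusted p of 0.217 in edgeR's fit. Trib3, a pseudokinase that restrains ATF4 and CHOP, had 27.0 and 24.3 CPM in NE and 26.9 and 25.2 CPM in vehicle. Chac1, a glutathione-degrading enzyme, had 19.4 and 22.3 CPM in NE and 20 and 22 CPM in vehicle. For both genes the NE libraries lay on either side of the vehicle libraries.

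Ppp1r15a encodes GADD34, the inducible phosphatase subunit that reverses eIF2alpha phosphorylation. It had 37.2 and 29.3 CPM in NE and 35.4 and 36.0 CPM in vehicle, so that its NE libraries were the highest and the lowest of the 4. Ppp1r15b, the constitutive counterpart, had 190.8 and 188.4 CPM in NE and 184.1 and 194.2 CPM in vehicle, and 11.4% of its exon bases overlap another gene. Ddit4, an inhibitor of mTORC1 signalling, had 72.8 and 68.6 CPM in NE and 66.3 and 80.4 CPM in vehicle. The NE values of both genes lay within the vehicle values.

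Among the chaperones, lectins and secreted ER proteins, vehicle replicate 1 was the lowest library for every gene. Manf, a secreted protein that binds the chaperone BiP, had 214.9 and 230.6 CPM in NE and 146.6 and 204.7 CPM in vehicle. Creld2, an ER-resident thiol protein, had 111.2 and 128.5 CPM in NE and 79.4 and 117.4 CPM in vehicle. Sdf2l1, a partner of the BiP cycle, had 52.8 and 55.9 CPM in NE and 34.3 and 53.6 CPM in vehicle. In all 3 genes vehicle replicate 1 stood apart below the other libraries. Vehicle replicate 2 was 1.40-fold of it for Manf, 1.48-fold for Creld2 and 1.56-fold for Sdf2l1. For Manf vehicle replicate 2 also lay below both NE libraries, whereas for Creld2 and Sdf2l1 it lay between them. About 9.25% of the exon bases of Manf overlap other genes.

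Over all 4 libraries the log2 fold change was 0.34 ± 0.11 for Manf (adjusted p = 0.112), 0.29 ± 0.12 for Creld2 (adjusted p = 0.248) and 0.31 ± 0.14 for Sdf2l1 (adjusted p = 0.265), all by edgeR. In the DESeq2 Wald test the adjusted p was 0.622 for Manf, 0.783 for Creld2 and 0.782 for Sdf2l1. Calr, calreticulin, a lectin chaperone of glycoproteins, had 1433 and 1516 CPM in NE and 1257 and 1503 CPM in vehicle. Hyou1, an HSP70-like chaperone of the ER lumen, had 352.5 and 350.6 CPM in NE and 290.8 and 388.1 CPM in vehicle. For Hyou1 the vehicle libraries were the lowest and the highest of the 4. Canx, the membrane-bound lectin chaperone calnexin, had 1022 and 1043 CPM in NE and 964.8 and 1024 CPM in vehicle, with fold changes of 0.05 for both Canx and Hyou1 and 0.10 for Calr. Calr has an annotated pseudogene, Calr-ps, and reads shared with it would make its level uncertain, which was not measured. Pseudogenes were searched by the member's own symbol only, so copies under other names may exist for any member.

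The 4 disulfide isomerases, which form and rearrange disulfide bonds, also had vehicle replicate 1 as their lowest library. Pdia6 had 418.4 and 444.4 CPM in NE and 338.6 and 427.9 CPM in vehicle. Pdia4 had 416.4 and 428.2 CPM in NE and 353.8 and 446.3 CPM in vehicle. Vehicle replicate 1 was the lowest for both, and vehicle replicate 2 was within or above the NE libraries. Pdia3, the isomerase that works with calreticulin and calnexin, had 1185 and 1320 CPM in NE and 1093 and 1274 CPM in vehicle. P4hb, the classical protein disulfide isomerase, had 1779 and 1890 CPM in NE and 1672 and 1901 CPM in vehicle. The fold changes of the 4 lay between 0.04 (P4hb) and 0.17 (Pdia6).

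The ERAD and translocon members gave 4 fold changes above 0 and 4 below, among the latter that of Sel1l at -0.01. Syvn1, the ubiquitin ligase HRD1 at the centre of ERAD, had 66.1 and 63.0 CPM in NE and 75.6 and 80.8 CPM in vehicle. Both NE libraries were below both vehicle libraries, with a log2 fold change of -0.28 ± 0.08 and an adjusted p of 0.0787 in edgeR's fit. The difference was -0.32 without vehicle replicate 1 and -0.23 without vehicle replicate 2. It was -0.31 without NE replicate 1 and -0.24 without NE replicate 2. Sel1l, the partner of that ligase, had 146.6 and 138.1 CPM in NE and 138.1 and 148.5 CPM in vehicle, where the groups overlapped.

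Herpud1, a scaffold of the same complex, had 48.8 and 52.5 CPM in NE and 63.0 and 49.8 CPM in vehicle. Its vehicle replicate 1 stood above the other libraries. Edem1 and Edem2, lectin-like proteins that trim mannose from glycoproteins bound for degradation, had their lowest value in vehicle replicate 1. Edem1 had 181.9 and 184.4 CPM in NE and 147.0 and 183.9 CPM in vehicle, and Edem2 had 49.3 and 56.9 CPM in NE and 43.0 and 56.3 CPM in vehicle.

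Derl1, a rhomboid-like protein of the ERAD channel, had 207.9 and 219.5 CPM in NE and 175.9 and 203.3 CPM in vehicle, a difference of 0.17 ± 0.08 without overlap (adjusted p = 0.256 by edgeR). Its relative Derl2 had 51.9 and 56.2 CPM in NE and 52.7 and 61.4 CPM in vehicle, with overlap. The third relative, Derl3, had 0 counts in both NE libraries and in vehicle replicate 1 and 1 count in vehicle replicate 2, and was not tested. A count of 0 allows up to 3 counts, which is 0.162 to 0.202 CPM in the libraries at 0, for counting error only. Sec61b, a subunit of the translocon, had 58.0 and 63.5 CPM in NE and 53.4 and 54.8 CPM in vehicle. Both NE libraries were the higher ones, by 0.17 ± 0.08 (adjusted p = 0.320 by edgeR).

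Levels of different members were compared only per kilobase of transcript, as the mean CPM over the 4 libraries divided by the median transcript length. P4hb was the highest at 997.1 CPM per kb, followed by Calr at 653.5 CPM per kb, Pdia3 at 439.8 CPM per kb and Atf4 at 279.1 CPM per kb. Trib3 and Chac1, both at 12.8 CPM per kb, were the lowest of the members tested, followed by Ppp1r15a at 13.4 CPM per kb and Atf6 at 13.5 CPM per kb. The levels of these last 4 members were thus close to each other. Isomerases and the lectin calreticulin held the first 3 places. The order depends on the length taken. For Ern1 the median transcript length was 1308.5 nt, which gave 62.0 CPM per kb, while its exons cover 8173 nt. A longer message would place it lower, possibly among the lowest members.

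**Figure D2:**
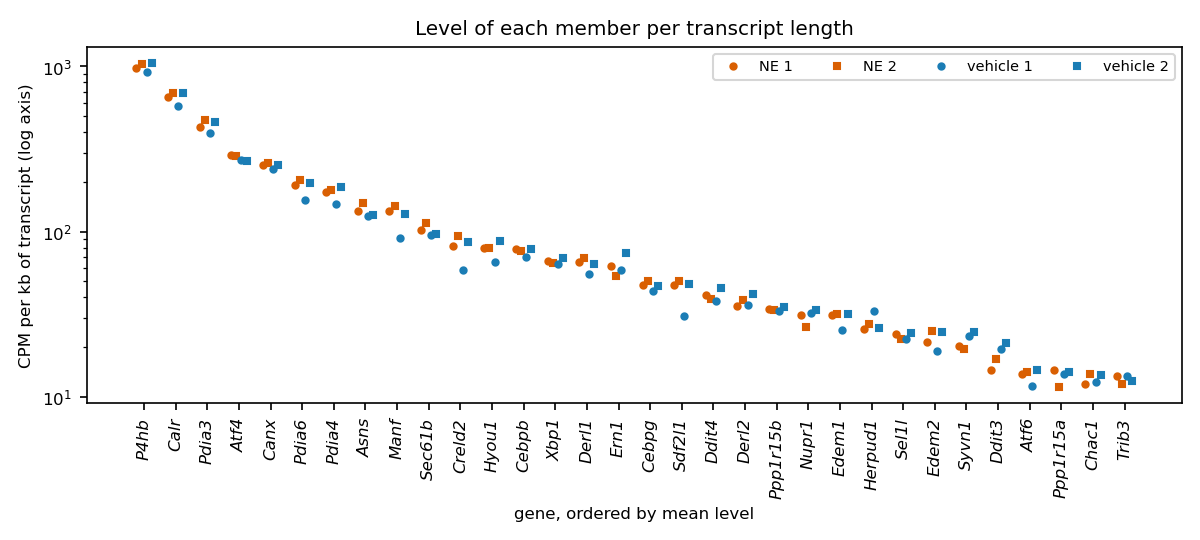
Level of each member in each library on a log axis of CPM per kilobase of transcript, with the 32 members tested ordered by mean level, NE libraries in orange and vehicle libraries in blue. P4hb is the highest at a mean of 997.1 and Trib3 and Chac1 are the lowest of the members tested at 12.8, and the libraries of a member lie close together beside the distance between members. The place of Ern1 depends on the transcript length taken.

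Across the members, vehicle replicate 1 stood apart from the other libraries. It was the lowest of the 4 libraries for 22 of 32 members (68.8%), against 26.4% of all genes tested. These 22 included all 6 chaperones, lectins and secreted proteins and all 4 isomerases. Vehicle replicate 2 was above vehicle replicate 1 in 29 of 32 members, by a median of 0.17 on the log2 scale, and by 0.45 over the chaperone group and 0.28 over the isomerases. The summed level of the 6 chaperones, lectins and secreted proteins was 3186 and 3325 CPM in NE and 2773 and 3291 CPM in vehicle. That of the 4 isomerases was 3799 and 4082 CPM in NE and 3457 and 4049 CPM in vehicle. In both sums vehicle replicate 2 lay between the NE libraries and vehicle replicate 1 below them.

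**Figure D3:**
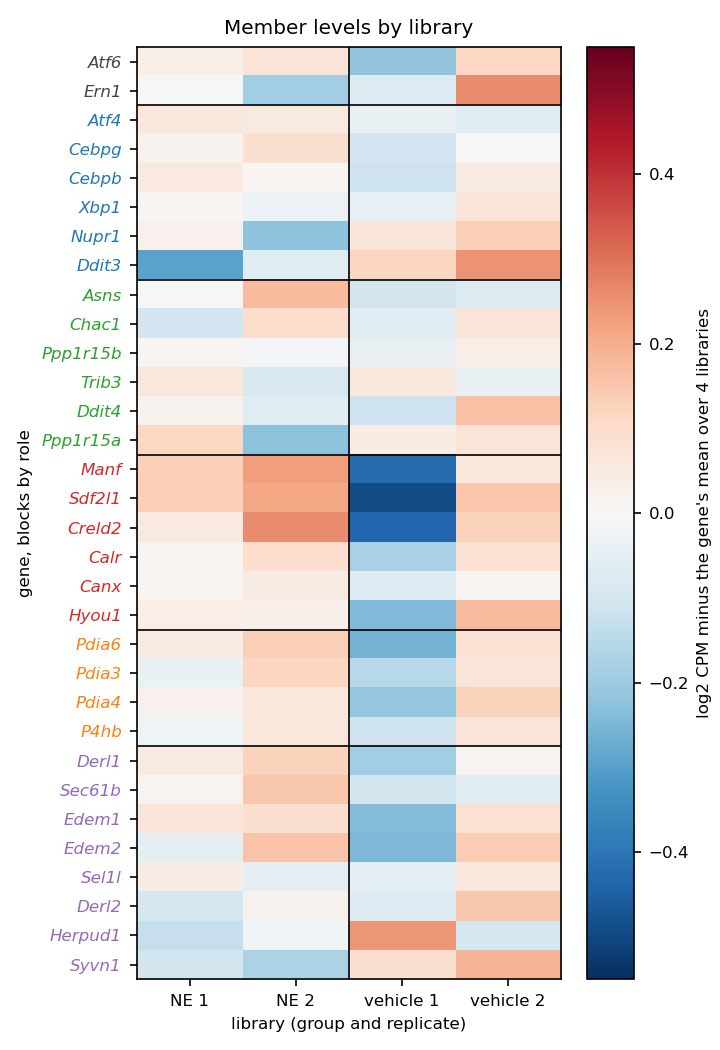
Deviation of each library from the mean of the 4 libraries in log2 CPM, for the 32 members tested (rows, by role), with the NE libraries in the left columns and the vehicle libraries in the right columns. Vehicle replicate 1 is the lowest library for 22 of the 32 members.

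Marker genes moved with vehicle replicate 1 as well. The summed level of the 6 mesenchymal markers was 5142 and 5228 CPM in NE and 6053 and 5187 CPM in vehicle, the highest in vehicle replicate 1. The summed level of the 6 Club cell markers was 909.1 and 920.4 CPM in NE and 1113 and 911.6 CPM in vehicle, again the highest there. That sum is nearly all Aldh1a1 and Ephx1, at 958.1 and 155.8 CPM in vehicle replicate 1. The other Club cell markers were absent or nearly so. The summed level of the 4 epithelial markers was 1513 and 1585 CPM in NE and 1402 and 1528 CPM in vehicle, the lowest in vehicle replicate 1. That sum is nearly all Krt8 and Krt18, whereas the few counts of Cdh1 were highest in vehicle replicate 1 (13). EdgeR called none of the tested marker genes. The 4 leukocyte markers summed to at most 5.10 CPM and the 3 endothelial markers to at most 3.49 CPM in any library. Their part in the low ER values of vehicle replicate 1 was not tested.

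The calls for the members depended on which vehicle library was used. Without vehicle replicate 2, where the lone vehicle library is assumed to vary like the NE libraries, edgeR called 9 members higher in NE, while 6.35% of all genes were called. Manf was then higher by 0.60 (adjusted p = 4.68e-10), Creld2 by 0.60 (adjusted p = 6.83e-08) and Sdf2l1 by 0.67 (adjusted p = 4.55e-06). Pdia6, Edem1, Hyou1, Derl1, Pdia4 and Calr were the other 6, with differences between 0.23 and 0.35. Without vehicle replicate 1, edgeR called 0 members higher and called Ern1 and Syvn1 lower, while 3.70% of all genes were called, and the fold changes of 12 members were above 0 and those of 20 below. Manf was then at 0.12 (adjusted p = 0.509), Creld2 at 0.03 (adjusted p = 0.919) and Sdf2l1 at 0.02 (adjusted p = 0.954). The members called against one vehicle library and those called against the other had none in common. The overlap of such calls over all genes was not counted, so no share stands beside it.

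**Figure D4:**
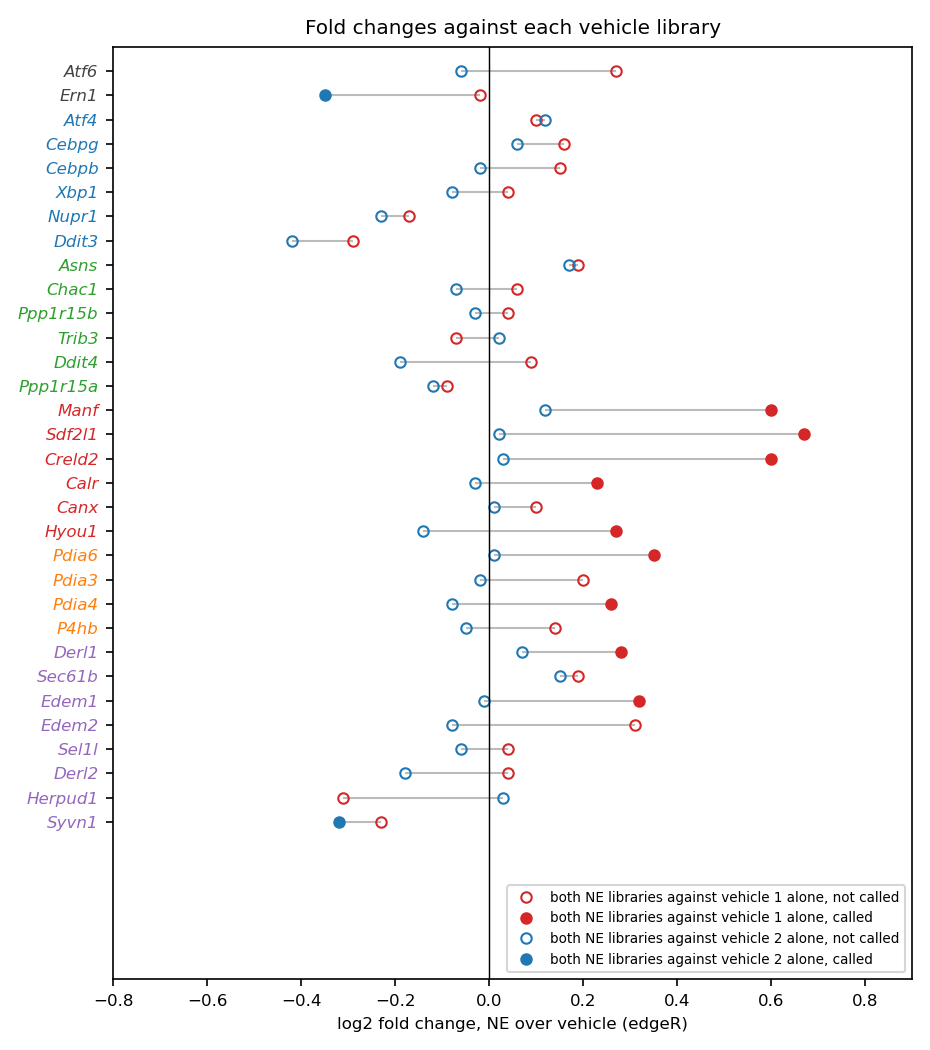
Log2 fold change (NE over vehicle, edgeR) of each member tested, by role, for both NE libraries against vehicle replicate 1 alone (red) and against vehicle replicate 2 alone (blue), with filled points where the adjusted p was under 0.05. Against vehicle replicate 1 the 9 filled points lie above 0, with Manf, Creld2 and Sdf2l1 between 0.60 and 0.67, and against vehicle replicate 2 the 2 filled points, Ern1 and Syvn1, lie below 0.

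Other genes of the pathway were read from the same fit in lists that leave out the members. In the list of the PERK and ATF4 arm, 37 of 40 genes were tested and edgeR called 0, with 4 higher and 3 lower at an unadjusted p under 0.05 (18.9%, against 17.3% of all genes). Slc38a2, an amino acid transporter, had 409.6 and 395.2 CPM in NE and 456.6 and 496.0 CPM in vehicle (-0.24 ± 0.07, adjusted p = 0.0787). Ddr2, a collagen receptor, differed by -0.25 ± 0.07 (adjusted p = 0.0870). The serine synthesis enzymes Psat1 (0.19 ± 0.07, adjusted p = 0.140) and Phgdh (0.21 ± 0.07, adjusted p = 0.143) had both NE libraries above both vehicle libraries. For these 4 genes, which have the smallest p of their list, the NE and vehicle libraries did not overlap. That held for 37.8% of the tested genes of the list and for 49.2% of all genes.

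Atf3, a stress-induced factor of the ATF4 arm, had 6.22 and 4.10 CPM in NE and 7.39 and 8.46 CPM in vehicle (-0.63 ± 0.23, adjusted p = 0.174 by edgeR), with both NE libraries lower. Its fold change was -0.35 without NE replicate 2 and -0.95 without NE replicate 1. Eif2ak3, which encodes PERK, had 41.8 and 35.3 CPM in NE and 42.5 and 38.8 CPM in vehicle. The fold changes of Atf5 (0.15), Sesn2 (-0.14) and Slc7a11 (-0.13), an ATF4-related factor, a stress-induced regulator of mTORC1 and a cystine transporter, had adjusted p-values of 0.390, 0.430 and 0.645. Vehicle replicate 1 was the lowest library for 6 of the 37 genes of this list (16.2%), against 26.4% of all genes.

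In the list of the IRE1, XBP1 and ATF6 arms with the folding, export and ERAD machinery, 62 of 64 genes were tested and edgeR called 2 higher and 1 lower in NE, while it called 1.57% of all genes tested. Ostc, a subunit of the oligosaccharyltransferase, had 129.3 and 129.9 CPM in NE and 96.4 and 106.3 CPM in vehicle, a rise of 0.36 ± 0.07 (adjusted p = 0.0310). Spcs1, a subunit of the signal peptidase, had 81.2 and 79.6 CPM in NE and 61.0 and 65.1 CPM in vehicle, a rise of 0.35 ± 0.08 (adjusted p = 0.0370). Yod1, a deubiquitinase that acts in ERAD, had 27.3 and 21.3 CPM in NE and 34.0 and 38.7 CPM in vehicle, a difference of -0.59 ± 0.12 (adjusted p = 0.0310). The NE and vehicle libraries did not overlap in any of these 3 genes, which are named because they were called. That held for 54.8% of the tested genes of the list and for 49.2% of all genes. About 16.3% of the exon bases of Spcs1 overlap Glt8d1 on the other strand. Without NE replicate 2, when edgeR called 4 genes in all, it called none of the 3, at log2 fold changes of 0.35 for Ostc, 0.37 for Spcs1 and -0.41 for Yod1 (adjusted p between 0.437 and 0.559). Without NE replicate 1 it called Yod1 (-0.77) but neither Ostc (0.36, adjusted p = 0.134) nor Spcs1 (0.34, adjusted p = 0.162). The adjusted p of Spcs1 was 0.0640 without vehicle replicate 1 (0.30), 0.0501 with total counts as scaling (0.33) and 0.0701 in the DESeq2 Wald test (0.35). Sec61g, a translocon subunit, had a fold change of 0.35 ± 0.09 and an adjusted p of 0.0531.

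Hspa5, Hsp90b1, Dnajb9 and Dnajb11 of this list had their lowest value in vehicle replicate 1. Hspa5, the central chaperone BiP, had 2332 and 2652 CPM in NE and 1810 and 2462 CPM in vehicle (0.22 ± 0.11, adjusted p = 0.300 by edgeR). Hsp90b1, the HSP90 of the ER, had 2039 and 2212 CPM in NE and 1641 and 2086 CPM in vehicle (0.19 ± 0.09, adjusted p = 0.305). About 15.7% of the exon bases of Hsp90b1 overlap other genes, so its level is uncertain. In both Hspa5 and Hsp90b1 vehicle replicate 2 lay between the NE libraries. Without vehicle replicate 2 edgeR called both higher in NE, Hspa5 by 0.46 (adjusted p = 9.57e-08) and Hsp90b1 by 0.37 (adjusted p = 4.34e-05). Without vehicle replicate 1 they were at 0.02 (adjusted p = 0.939) and 0.03 (adjusted p = 0.908). Dnajb11, a co-chaperone of BiP, had 235.2 and 235.5 CPM in NE and 197.1 and 249.3 CPM in vehicle, and was called higher without vehicle replicate 2 as well (0.26, adjusted p = 0.0345). Dnajb9, another co-chaperone, had 30.0 and 25.5 CPM in NE and 24.8 and 26.2 CPM in vehicle. Over the list, vehicle replicate 1 was the lowest library for 39 of 62 genes (62.9%).

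Fold changes over all genes moved with transcript length, and the 3 called pathway genes lie at both ends of it. Across the 11399 genes with a length, Spearman's rho between fold change and length was -0.27, as a description across genes that share the same 4 libraries, while across the 32 members it was 0.08. When genes were cut by length into 10 groups of equal size, the group with the shortest transcripts had a median fold change of 0.11 and that with the longest one of -0.08. Ostc (1067 nt) and Spcs1 (949 nt) are short and Yod1 (6128 nt) is long. With the trend on length removed, edgeR called none of the 3, although their log2 fold changes moved little. They were then 0.31 for Ostc (adjusted p = 0.0714), 0.29 for Spcs1 (adjusted p = 0.0865) and -0.49 for Yod1 (adjusted p = 0.0714). That fit called 0 members and 23 genes in all. Among the members the fold change of the short Sec61b was then 0.03, against 0.17 without that step, and that of Ddit3 was -0.43, against -0.36.

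**Figure D5:**
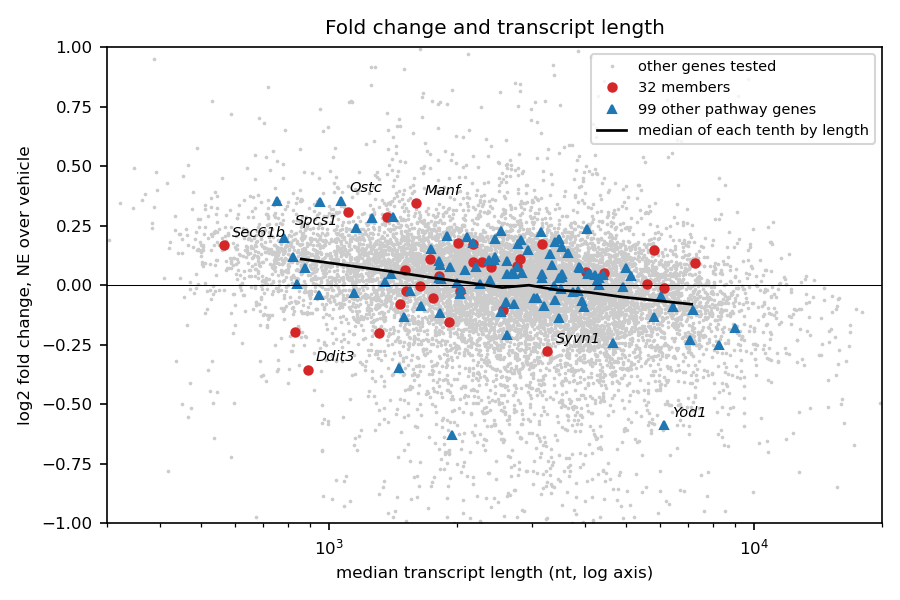
Log2 fold change (NE over vehicle) against median transcript length in nt on a log axis, with members as circles, the 99 other pathway genes as triangles and all other tested genes in grey, and a line through the medians of 10 groups of genes by length; 151 of 11399 genes lie outside the axes. The medians run from 0.11 in the group with the shortest transcripts to -0.08 in that with the longest.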

How the data were processed

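Total RNA of C22 cells gave 4 libraries, prepared with a NEBNext Ultra II kit and sequenced on a NovaSeq X, per the labels' protocols. The authors deposited raw read counts per gene. Per the submitters' processing notes the genome build was GRCm39. No aligner, counter, annotation or strand setting is stated in the sources used here. Reads of overlapping genes or near-identical copies are therefore uncertain.

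Members were matched by symbol. Members and lists were chosen with earlier results of these data known. All members are named, and of other pathway genes those called, up to 4 per list with the smallest p, and 10 chosen by function. Genes kept by filterByExpr (minimum count 10, minimum total 15) were compared, NE against vehicle, with edgeR 4.0.16 in R 4.3.3 (TMM scaling, quasi-likelihood test, Benjamini-Hochberg adjustment over 11419 genes, called under 0.05). The SE of a log2 fold change was taken as its size over the root of the F statistic. In that fit the spread of each gene is drawn toward the trend over all genes. CPM use TMM-scaled totals of the genes kept. Totals ran from 14783176 to 18491334 counts. Transcript lengths and exon overlaps came from GENCODE M21 (GRCm38), matched on gene identifier. The main edgeR fit was also run on simulated counts with known changes, drawn with its own dispersion trend. The alternative settings were not tested in that way. Alternatives were other scalings and count filters, DESeq2 1.42.0 (Wald test), limma 3.58.1 voom, the replicate number as a block, removal of the length trend, and each library left out.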

Additional observations from a re-analysis of the deposited data

How the results depend on the processing

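The median log2 fold change of the members was 0.06 as reported, 0.14 without vehicle replicate 2, -0.03 without vehicle replicate 1 and 0.10 with the length trend removed, and lay between 0.04 and 0.09 under the other alternatives, against a spread between replicates of 0.0901. Without a low-count filter 84 genes were called higher and 225 lower, against 39 and 140 in the comparison as reported. With total counts as scaling 12 genes were called higher, among them 1 other pathway gene (Ostc). The DESeq2 Wald test called 24 genes higher and 51 lower, 1 other pathway gene higher (Ostc), and gave 2 members with an unadjusted p under 0.05, against 7. With the length trend removed 5 genes were called higher and 18 lower, 0 other pathway genes in either direction, and 12 members had an unadjusted p under 0.05. The share of all genes under that unadjusted p was counted only in the comparison as reported. Member counts under any alternative, libraries left out included, thus have no such share beside them. Over all genes, the difference of replicate 2 minus replicate 1 in NE and that in vehicle had a Pearson r of -0.06. Replicate 2 was above replicate 1 for 29 of 32 members in vehicle and for 20 in NE. Over the 11419 genes tested it was so for 5748 in vehicle and 5709 in NE. The labels state no pairing of same-numbered replicates, and whether they share a batch was not tested. With the replicate number as a block 84 genes were called higher and 236 lower, and among members 1, Manf (0.36, adjusted p = 0.0252). The cause of these shifts was not tested.

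With each library left out in turn, genes called higher ranged from 2 to 312 and lower from 2 to 428. Members called higher ranged from 0 to 9 and lower from 0 to 2, and those with an unadjusted p under 0.05 from 2 to 15. Other pathway genes called higher ranged from 0 to 11, lower from 0 to 5, and at an unadjusted p under 0.05 from 7 to 24. Without NE replicate 2 no other pathway gene was called, and without NE replicate 1 only Yod1 of the 3.

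Some log2 fold changes of members changed sign, none of them called over all 4 libraries. Ppp1r15b was at -0.01 with total counts, Chac1 at 0.00 without a filter and Sel1l at 0.09 with the length trend removed. With 1 library left out, the lowest and highest values were -0.08 and 0.04 for Xbp1, -0.06 and 0.27 for Atf6, -0.10 and 0.05 for Trib3, and -0.11 and 0.09 for Chac1. They were -0.31 and 0.03 for Herpud1, -0.02 and 0.20 for Pdia3, -0.08 and 0.26 for Pdia4, -0.05 and 0.14 for P4hb, and -0.03 and 0.23 for Calr. They were -0.01 and 0.32 for Edem1, -0.08 and 0.31 for Edem2, -0.06 and 0.04 for Sel1l, -0.14 and 0.27 for Hyou1, and -0.28 and 0.06 for Ppp1r15a. They were -0.03 and 0.04 for Ppp1r15b, -0.02 and 0.15 for Cebpb, -0.18 and 0.04 for Derl2, and -0.19 and 0.09 for Ddit4. At this depth Derl3 and the second identifier of Ddit3 had too few counts to be tested.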
